A study of Mus musculus with 6 samples.

Results

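Retinoid metabolism genes were followed in cancer-associated fibroblasts (CAFs) from mouse mammary tumors. They were chosen by name and comprised 9 genes, Rbp4, Stra6, Dhrs3, Aldh1a1, Aldh1a2, Aldh1a3, Crabp1, Crabp2 and Cyp26b1, out of 27179 genes in the deposited count table. All 9 passed the filter on low counts, which left 14855 genes for testing. The CAFs came from female raGFP-Wnt1 mice, heterozygous for a Pdgfra H2B-GFP reporter that marks fibroblast nuclei with green fluorescent protein and carrying an MMTV-Wnt1 transgene, whose promoter drives Wnt1 in mammary epithelium. GFP-positive cells of each of 3 tumors were sorted by flow cytometry for the surface protein CD34 into a CD34 negative and a CD34 positive fraction, giving 6 bulk RNA-seq libraries. Both fractions therefore share the reporter, the transgene and the untreated tumor. Per the study's methods the reporter strain was C57BL/6 and the transgenic strain FVB/NJ, and the mice came from their cross. Ages were not given in the sources used here, and the mouse behind each tumor was not described further.

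Retinoids are vitamin A derivatives. Retinol travels in blood bound to retinol-binding protein, enters cells through a membrane receptor, and is oxidized first to retinal and then, irreversibly, to retinoic acid by retinaldehyde dehydrogenases of the Aldh1a family. Retinoic acid binds nuclear receptors of the RAR and RXR families that regulate transcription, while binding proteins carry it within the cell and Cyp26 enzymes break it down. Fibroblasts of several tissues are known to make and respond to retinoic acid.

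Levels are given as CPM, counts scaled by the library total and its TMM (trimmed mean of M-values) factor, and libraries are numbered by tumor. Library totals ranged from 16238059 to 86609267 counts, and CD34 negative library 3 had the fewest detected genes, 14314 against 16253 to 19220 in the other libraries. Cd34 itself, the gene of the sorted protein, measured 79.2, 42.0 and 102 CPM in the negative and 678, 563 and 1605 CPM in the positive libraries of tumors 1 to 3. Pdgfra, whose reporter was used in the sort, stayed between 302 and 506 CPM in every library. The 5 fibroblast marker genes were detected in all 6 libraries and summed to between 39548 and 57904 CPM. Most of that sum was Col1a1 and Col1a2. With the tumor as a block, the markers Dcn (log2 fold change -1.12, adjusted p = 0.00154) and Lum (-0.73, adjusted p = 0.0140) were lower in negative CAFs. In bulk RNA, fewer cells of a type and less RNA per cell cannot be told apart. Without the block, p-values measure the spread between these 6 libraries within their groups. With it, they measure the spread of the differences within the 3 tumors.

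Of the 9 genes, 4 were higher in the CD34 negative library of every tumor (Stra6, Aldh1a2, Crabp1 and Cyp26b1) and 1, Aldh1a3, was lower in every tumor. A common direction in 3 of 3 tumors was met by 46.3% of all tested genes. The ranges of the groups did not overlap for 3 of the 9 genes (Aldh1a3, Cyp26b1 and Stra6), against 20.4% of all tested genes. In the fit without a term for the tumor, none of the 9 passed an adjusted p of 0.05 (Benjamini-Hochberg, limma-voom), a threshold that 0.121% of tested genes passed. At an unadjusted p of 0.05, 4 of 9 passed (those same 3 and Crabp1), against 14.3% of tested genes. edgeR called 0 of 9 and DESeq2 3 of 9, against 0.0606% and 4.7% of tested genes.

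Both fractions of a pair came from one tumor, so a second fit took the tumor as a block. With the block 5 of the 9 passed, against 8.57% of tested genes, and they were the 5 that moved one way in every tumor. The block narrowed most standard errors, as the plot of ratios within tumors shows. It moved the estimate of Rbp4 from -0.79 to -0.33 and that of Crabp2 from -0.44 to -0.27. The median log2 fold change of the 9, CD34 negative minus CD34 positive, was 0.37 without the block, against -0.03 over all tested genes. The median size of the change regardless of sign was 0.99 against 0.37. The genes that passed were split between the fractions and between the steps of the pathway.

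**Figure D1:**
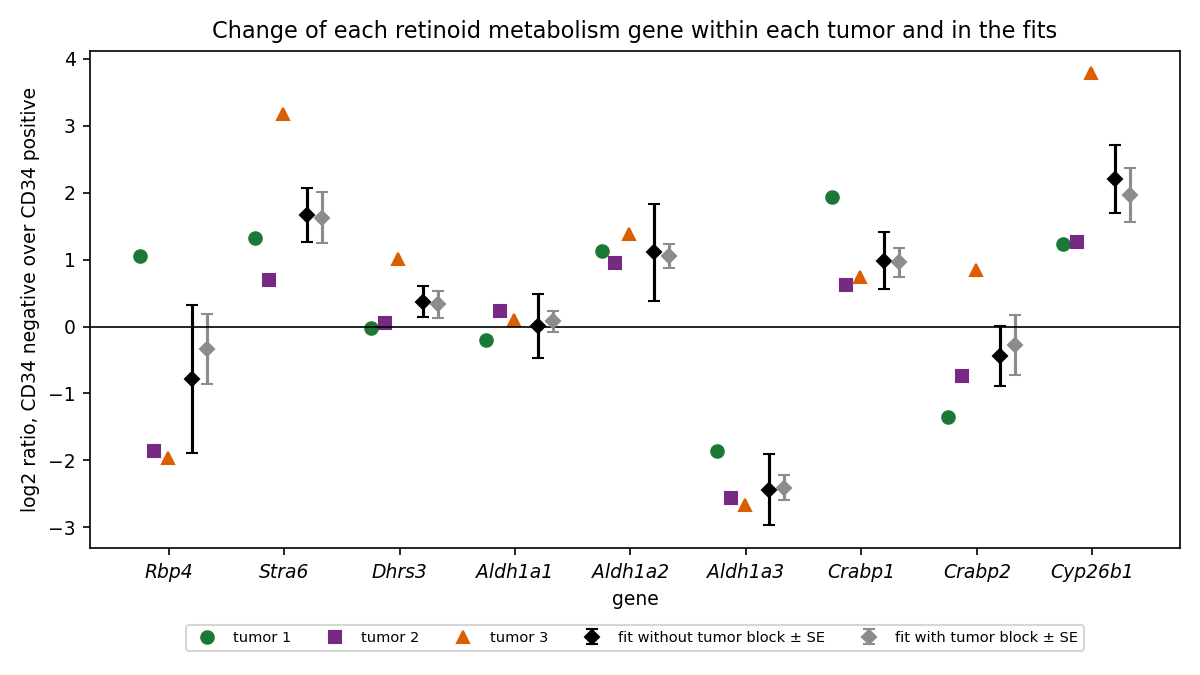
Log2 ratio of CD34 negative over CD34 positive (vertical axis) for each of the 9 genes. Colored symbols are the 3 tumors and diamonds are the fitted log2 fold changes with their standard errors, black without and grey with the tumor block. Aldh1a3 lies below 0 in all 3 tumors, from -2.66 to -1.86, while Stra6, Aldh1a2, Crabp1 and Cyp26b1 lie above 0 in all 3.

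Rbp4 (chr19:38116620-38125321, as all gene positions here from RefSeq on GRCm38.p6) encodes the retinol-binding protein that carries retinol in blood. It measured 41.9, 6.49 and 1.21 CPM in CD34 negative libraries 1, 2 and 3 and 20.2, 23.5 and 4.76 CPM in the CD34 positive libraries. Tumor 3 was lowest in both fractions, and the ranges overlapped. The log2 ratio was 1.05 in tumor 1 but -1.86 in tumor 2 and -1.97 in tumor 3. The fitted difference was -0.79 ± 1.10 (SE, adjusted p = 0.779). Without the block its sign depended on the tool: edgeR gave 0.03 and DESeq2 0.02. With the block all tools gave a negative sign, edgeR at -0.94 (adjusted p = 0.484) and DESeq2 at -0.99 (adjusted p = 0.248). The limma-voom fit with the block gave -0.33 ± 0.53 (adjusted p = 0.774), and leaving out tumor 1 in that fit gave -1.83 (adjusted p = 0.0223). Rbp4 also spread most among libraries, with an SD of centred log2 CPM of 1.71, while Dhrs3 spread least at 0.32.

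Stra6 (chr9:58063793-58154004) encodes the cell-surface receptor that takes up retinol from the Rbp4 protein, and is itself known as a gene induced by retinoic acid. Its CD34 negative libraries held 98.7, 87.1 and 191 CPM and its CD34 positive libraries 39.2, 54.0 and 21.2 CPM. Every negative library was above every positive one, and tumor 3 supplied both the highest and the lowest value. The mean was 126 ± 57.0 CPM in negative and 38.1 ± 16.5 CPM in positive CAFs (SD, n = 3 each). The log2 fold change was 1.67 ± 0.41 (SE, adjusted p = 0.133) without and 1.63 ± 0.38 (adjusted p = 0.0303) with the block. Over 13 alternatives on all libraries, the adjusted p of Stra6 ran from 0.000263 to 0.149. Tumor 3 set much of the size: without it the log2 fold change was 0.96, or 0.93 with the block (adjusted p = 0.00527). Stra6 overlaps Ccdc33 in the annotation, but Ccdc33 held 143 counts in all libraries against 22269 for Stra6.

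Dhrs3 (chr4:144892534-144928209) encodes a reductase that returns retinal to retinol. It measured 55.8, 46.5 and 67.1 CPM in the negative and 56.6, 44.8 and 33.2 CPM in the positive libraries. Tumors 1 and 2 held nearly equal levels in both fractions and only tumor 3 separated them, at a log2 ratio of 1.01. The fitted difference was 0.37 ± 0.23 (SE, adjusted p = 0.505) and 0.33 ± 0.21 (adjusted p = 0.393) with the block. Dhrs3 overlaps Vps13d, which held 25013 counts against 13356 for Dhrs3. The library kit did not mark strand, and how reads from the overlap were counted was not given in the sources used here.

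The retinaldehyde dehydrogenases divided by isoform. Aldh1a3 (chr7:66390892-66427477) measured 18.6, 13.9 and 38.2 CPM in CD34 negative libraries 1, 2 and 3 and 67.5, 82.0 and 242 CPM in the CD34 positive libraries. The ranges did not overlap, and tumor 3 was highest in each fraction. The mean was 23.6 ± 12.9 CPM in negative and 131 ± 97.0 CPM in positive CAFs (SD, n = 3 each). The log2 fold change was -2.44 ± 0.54 (SE, adjusted p = 0.104) without the block and -2.41 ± 0.19 (adjusted p = 0.000237) with it. Over the 13 alternatives on all libraries its adjusted p ran from 9.45e-25 to 0.141. With the block Aldh1a3 stayed lower when any tumor was left out, between -2.63 and -2.23.

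Aldh1a3 is also made by mammary luminal epithelium, so the epithelial marker genes were read beside it. They summed to 149, 125 and 48.3 CPM in the negative and 130, 82.4 and 12.8 CPM in the positive libraries. In each fraction the sum was smallest in tumor 3. None of the 6 epithelial markers passed either limma-voom fit, against 0.121% and 8.57% of all tested genes without and with the block. At an unadjusted p under 0.05, 0 and 3 of them passed, against 14.3% and 23.3% of all tested genes. The 3 with the block were Krt8, Krt18 and Krt5, all higher in negative CAFs. Of the 5 endothelial markers, Tek was lower in negative CAFs with the block (13.4, 6.53 and 5.45 CPM in the negative and 65.6, 48.8 and 116 CPM in the positive libraries, log2 fold change -3.09, adjusted p = 0.00154). The other 4 summed to 16.3, 7.0 and 4.98 CPM in the negative and 27.7, 6.40 and 6.84 CPM in the positive libraries, ranges that overlapped. The cells were sorted on the Pdgfra reporter. The part of epithelial or endothelial transcripts in the Aldh1a3 difference was not tested.

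Aldh1a2 (chr9:71215789-71296243) measured 59.4, 47.6 and 13.2 CPM in the negative and 27.2, 24.7 and 5.05 CPM in the positive libraries. The ranges overlapped, since both fractions of tumor 3 were low, but within each tumor the negative library was the higher. The log2 ratios were 1.12, 0.95 and 1.38. The fitted difference was 1.11 ± 0.72 (SE, adjusted p = 0.525) without and 1.05 ± 0.18 (adjusted p = 0.00875) with the block, and its adjusted p over the 13 alternatives ran from 1.41e-05 to 0.610.

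Aldh1a1 (chr19:20492583-20643463) measured 48.8, 120 and 40.5 CPM in the negative and 56.1, 103 and 37.9 CPM in the positive libraries. Tumor 2 was high and tumor 3 low in both fractions. The fitted difference was 0.01 ± 0.48 (SE, adjusted p = 0.996), and 0.08 ± 0.15 (adjusted p = 0.828) with the block. Aldh1a1 thus followed the tumor rather than the fraction in these libraries, within those errors. Aldh1a7, a near-identical copy of Aldh1a1, averaged 0.288 CPM in negative and 0.257 CPM in positive CAFs, and how reads shared by both were counted was not given in the sources used here. Aldh1a1 also overlaps the long noncoding RNA E030003E18Rik, which held 2064 counts against 20387 for Aldh1a1.

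Expressed per kilobase of transcript (RPKM), the isoforms can be set against each other. Aldh1a3 made up 33.4, 28.2 and 77.4% of the summed Aldh1a RPKM in CD34 positive libraries 1, 2 and 3, against 9.80, 4.85 and 30.4% in the negative libraries. Aldh1a2 made up 47.1, 24.9 and 15.8% in the negative and 20.2, 12.7 and 2.42% in the positive libraries. In each tumor the share of Aldh1a2 was larger in the negative and that of Aldh1a3 larger in the positive fraction. Aldh1a1 held the largest share in the negative libraries of tumors 2 and 3 and the positive libraries of tumors 1 and 2. The summed level was 55.7, 84.4 and 37.0 RPKM in negative and 59.5, 85.4 and 92.1 RPKM in positive libraries, close between fractions in tumors 1 and 2 and higher in the positive fraction of tumor 3.

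**Figure D2:**
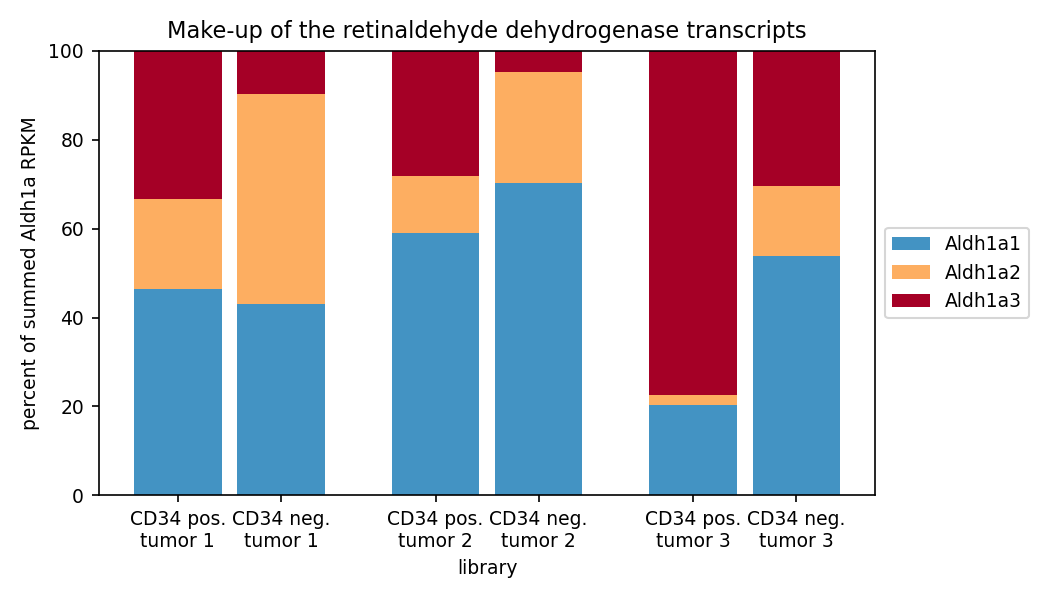
Share of each retinaldehyde dehydrogenase gene in the summed Aldh1a RPKM (vertical axis, percent) of each library, paired by tumor. The Aldh1a3 segment is larger in the CD34 positive library of every tumor and reaches 77.4% in tumor 3, and the Aldh1a2 segment is larger in the CD34 negative library of every tumor.

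The cellular retinoic acid binding proteins carry retinoic acid inside the cell. Crabp1 (chr9:54764748-54773110) measured 108, 168 and 117 CPM in the negative and 28.2, 109 and 69.6 CPM in the positive libraries. Within each tumor the negative library was higher, most in tumor 1, at log2 ratios of 1.94, 0.62 and 0.75, although the group ranges just overlapped. The fitted difference was 0.99 ± 0.42 (SE, adjusted p = 0.340) without and 0.96 ± 0.22 (adjusted p = 0.0268) with the block. Over the 13 alternatives its adjusted p ran from 0.00115 to 0.449.

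Crabp2 (chr3:87948693-87953372), which delivers retinoic acid to its nuclear receptors, was far lower, at 2.88, 3.23 and 8.99 CPM in the negative and 7.37, 5.40 and 4.97 CPM in the positive libraries. The negative library was lower in tumors 1 and 2 and higher in tumor 3. The difference was -0.44 ± 0.45 (SE, adjusted p = 0.696), and -0.27 ± 0.45 (adjusted p = 0.785) with the block. In RPKM, Crabp1 exceeded Crabp2 in every library, by 45.6, 63.3 and 15.7 times in the negative and 4.64, 24.6 and 17.0 times in the positive libraries.

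Cyp26b1 (chr6:84571414-84593908) encodes an enzyme that breaks down retinoic acid and is itself known to be induced by it. It measured 84.9, 42.1 and 127 CPM in the negative and 36.1, 17.5 and 9.24 CPM in the positive libraries. The ranges did not overlap, and as for Stra6 the highest and the lowest value both came from tumor 3. The mean was 84.8 ± 42.7 CPM in negative and 20.9 ± 13.8 CPM in positive CAFs (SD, n = 3 each). The log2 fold change was 2.21 ± 0.51 (SE, adjusted p = 0.115) without and 1.97 ± 0.41 (adjusted p = 0.0184) with the block. Without tumor 3 it was 1.39, or 1.24 with the block (adjusted p = 0.000618). Over the 13 alternatives on all libraries its adjusted p ran from 6.50e-05 to 0.194.

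**Figure D3:**
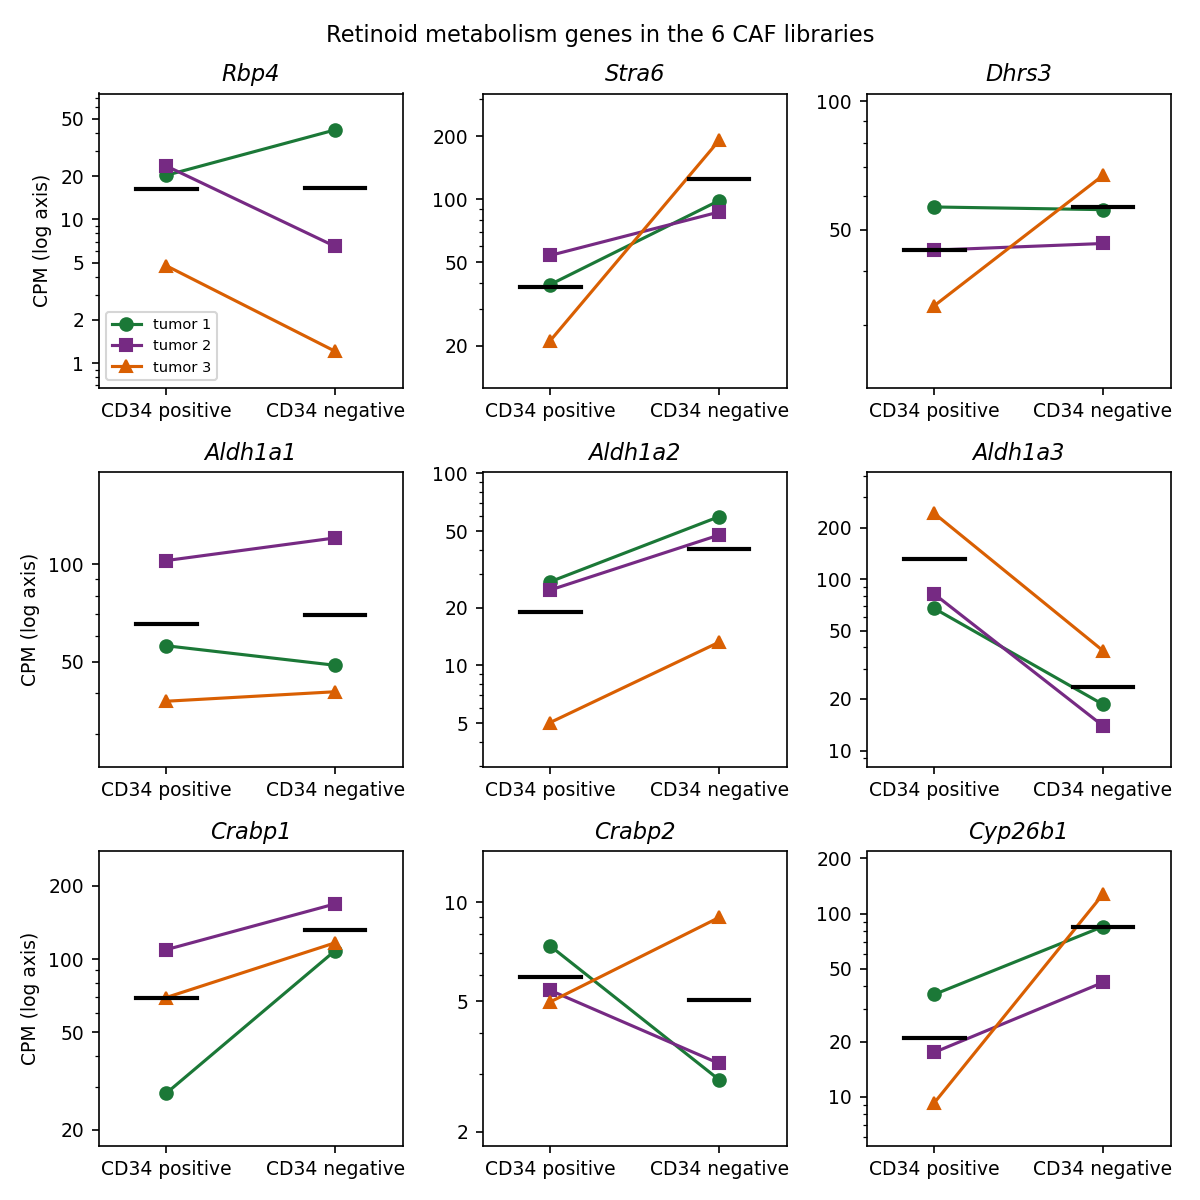
CPM (log axis) of the 9 genes in the CD34 positive and CD34 negative libraries, with lines joining the libraries of one tumor and black bars at the group means. The lines of Stra6, Aldh1a2, Crabp1 and Cyp26b1 rise toward CD34 negative in all 3 tumors and those of Aldh1a3 fall in all 3, while Rbp4, Dhrs3, Aldh1a1 and Crabp2 have lines in both directions.

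Synthesis by the Aldh1a genes and breakdown by Cyp26b1 can be set side by side per transcript length. The ratio of Cyp26b1 RPKM to the summed Aldh1a RPKM was 0.314, 0.103 and 0.711 in the negative and 0.125, 0.0421 and 0.0207 in the positive libraries. It was higher in the negative fraction of each tumor, though the negative library of tumor 2 lay below the positive library of tumor 1. The ratio leaves out Cyp26a1, which held 2.88, 6.04 and 27.4 RPKM in the negative and 2.64, 3.44 and 0.555 RPKM in the positive libraries. Cyp26b1 held 17.5, 8.68 and 26.3 RPKM in the negative and 7.45, 3.60 and 1.91 RPKM in the positive libraries. The ratio compares transcripts only, and neither enzyme activity nor retinoic acid was measured.

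Cyp26b1 and Stra6 had the most similar profiles among the 9, with a root mean square difference of 0.54 between their centred log2 CPM over the 6 libraries. Crabp2 and Dhrs3 came close at 0.56, though their fitted differences had opposite signs, and all of these had nearer genes outside the 9. Promoter windows of Cyp26b1 and Stra6 are shown because of that distance, and shared regulation was not tested. The windows are from RefSeq (GRCm38.p6, 250 bases before to 50 after a transcription start, 5′ to 3′ on the gene's strand). Cyp26b1 lies on the minus strand of chromosome 6 and its window is chr6:84593761-84594060, with the letters TATAAA in capitals at position -139 from the start. Stra6 lies on the plus strand of chromosome 9 and the window shown, 1 of 4, is chr9:58133825-58134124, with the receptor hexamer AGTTCA in capitals.
Cyp26b1: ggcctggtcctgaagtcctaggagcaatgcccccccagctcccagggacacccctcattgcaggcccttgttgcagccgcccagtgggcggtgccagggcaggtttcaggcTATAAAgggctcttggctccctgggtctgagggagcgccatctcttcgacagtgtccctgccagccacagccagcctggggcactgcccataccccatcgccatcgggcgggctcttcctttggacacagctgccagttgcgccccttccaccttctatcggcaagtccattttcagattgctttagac
Stra6: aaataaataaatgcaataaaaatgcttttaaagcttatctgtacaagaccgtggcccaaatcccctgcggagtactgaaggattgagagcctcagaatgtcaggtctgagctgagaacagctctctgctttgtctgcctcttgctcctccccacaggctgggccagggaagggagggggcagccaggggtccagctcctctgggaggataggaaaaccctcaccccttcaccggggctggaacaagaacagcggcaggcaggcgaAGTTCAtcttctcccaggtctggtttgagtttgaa
Windows were found for 7 of the 9 genes, 14 windows in all, and for neither Crabp2 nor Aldh1a3. They were searched on both strands for the hexamer AGGTCA, the variant AGTTCA, the variant GGGTCA and the variant GGTTCA, to which retinoic acid receptors and other nuclear receptors bind. A hexamer stood in 3 of the 14 windows (Aldh1a1, Rbp4 and this Stra6 window), against 43.7% of 32851 windows genome-wide. Direct repeats of the hexamer spaced by 1, 2 or 5 bases were in none of the 14 and in 0.222%, 0.268% and 0.0974% of all windows. TATAAA on the gene's strand was in the Cyp26b1 and an Rbp4 window, against 8.32% of all windows. These letters describe the windows only, and counts per gene do not tell which start was used.

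Compared per transcript length, Crabp1 was the most abundant of the 9 in both fractions, at 177 ± 44.0 RPKM in negative and 93.1 ± 54.8 RPKM in positive CAFs (SD, n = 3 each). In negative CAFs it was followed by Stra6 (34.5 ± 15.6 RPKM), Aldh1a1 (34.4 ± 21.6), Dhrs3 (31.4 ± 5.74), Aldh1a2 (17.7 ± 10.6), Cyp26b1 (17.5 ± 8.81), Rbp4 (12.7 ± 17.0), Aldh1a3 (6.93 ± 3.79) and Crabp2 (5.60 ± 3.81). Only the steps after Crabp1 and after Dhrs3 exceeded the larger SD of the neighbours. In positive CAFs the order after Crabp1 was Aldh1a3 (38.4 ± 28.5 RPKM), Aldh1a1 (32.2 ± 16.4), Dhrs3 (25.0 ± 6.49), Rbp4 (12.5 ± 7.72), Stra6 (10.5 ± 4.52), Aldh1a2 (8.38 ± 5.36), Crabp2 (6.57 ± 1.42) and Cyp26b1 (4.32 ± 2.84), where only the step after Dhrs3 did so. The place of Aldh1a3 in positive CAFs rested on library 3, at 71.2 RPKM against 19.9 and 24.1 RPKM in libraries 1 and 2. Without library 3 its mean was 22.0 RPKM, below Aldh1a1 (39.0) and Dhrs3 (28.2). By mean RPKM, Crabp1 lay at percentile 96.7 and Crabp2 at 52.8 of all tested genes, with the others between.

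For each gene, the tested genes with the nearest centred log2 CPM profile over the 6 libraries were also listed. Aldh1a3 was nearest Ltbp1, a protein that binds latent TGF-beta, at a root mean square difference of 0.29, and Clip4 at 0.35. Aldh1a2 was nearest Stc2, a secreted glycoprotein, at 0.20 and the neurotrophin Bdnf at 0.25. Cyp26b1 was nearest the glutamate receptor subunit Gria4 at 0.25 and the lipid transporter Abcg1 at 0.31. Stra6 was nearest Stard10, a lipid transfer protein, and Gm5617, both at 0.18. Crabp1 was nearest Sac3d1 at 0.20 and the proteoglycan Srgn at 0.21, and Aldh1a1 nearest Mcfd2 at 0.24 and Ptges3l at 0.25. Rbp4 had no near neighbour, with G530011O06Rik at 0.76 and the chloride channel Ano1 at 0.78. Crabp2 was nearest B3gat2 and Eri2, both at 0.19, and Dhrs3 nearest Dhx40 at 0.07 and Med29 at 0.08. These are descriptions over 6 libraries chosen from 11481 candidate genes.

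Beyond the 9, 46 other genes of the pathway were listed by role, of which 31 passed the filter. Without the block none passed, against 0.121% of all tested genes, and the median log2 fold change was 0.03, against -0.03 over all tested genes. At an unadjusted p of 0.05, 7 of the 31 passed, against 14.3% of all tested genes. Without the block edgeR called 0 and DESeq2 5 of the 31, against 0.0606% and 4.7% of all tested genes. With the block 4 passed, 2 higher and 2 lower in CD34 negative CAFs, which is 12.9% of the 31 against 8.57% of all tested genes. Ttr, Rbp2, Rdh7 and Stra8 had no count in any library.

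Among genes of retinol carriage and uptake, Lrp1, a receptor for lipoprotein remnants, was higher in negative CAFs, at 3965 ± 446 against 2391 ± 410 CPM (SD, n = 3 each; log2 fold change with the block 0.74, adjusted p = 0.0107). Lpl, lipoprotein lipase, averaged 403 ± 191 against 579 ± 361 CPM and did not pass (adjusted p = 0.0701 with the block).

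Of the enzymes that interconvert retinol and retinal, Adh1 was lower in negative CAFs, at 5.76 ± 3.63 against 21.7 ± 10.4 CPM (SD, n = 3 each; -1.96 with the block, adjusted p = 0.00472). Rdh10, the main retinol dehydrogenase in embryos, averaged 55.0 ± 3.25 and 59.5 ± 19.5 CPM (adjusted p = 0.732 with the block). Dhrs4, another member of the family, averaged 17.3 ± 0.482 and 17.5 ± 3.93 CPM. Per length, Dhrs3 over Rdh10 came to 1.38, 1.02 and 1.55 in the negative and 1.64, 0.703 and 0.797 in the positive libraries, an overlapping range. Aox1, an aldehyde oxidase, averaged 23.0 ± 3.03 and 26.0 ± 11.2 CPM.

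Cyp26a1, the paralog of Cyp26b1, measured 5.13, 10.8 and 48.7 CPM in the negative and 4.70, 6.12 and 0.988 CPM in the positive libraries. As for Cyp26b1, tumor 3 held the highest and the lowest value, and the fitted difference of 1.67 ± 1.13 (SE) did not pass (adjusted p = 0.539, and 0.171 with the block). Fabp5, which also binds retinoic acid, averaged 2.99 CPM in negative and 4.44 CPM in positive CAFs.

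Of the 5 tested receptor genes, 1 passed with the block, against 8.57% of all tested genes: Rxrb, at 35.5 ± 2.07 CPM in negative against 21.3 ± 1.46 CPM in positive CAFs (SD, n = 3 each; 0.73, adjusted p = 0.0278). The fitted log2 fold change lay above 0 for all 5, as for 47.7% of all tested genes, with Rarb at 0.03 ± 0.24 (SE). Rarg averaged 89.9 ± 8.90 against 63.7 ± 3.20 CPM (adjusted p = 0.0584 with the block) and Rxra 72.0 ± 10.1 against 56.5 ± 5.72 CPM (adjusted p = 0.237). Among genes known to be induced by retinoic acid, Rarres2, the gene of the chemoattractant chemerin, was lower in negative CAFs, at 118 ± 48.1 against 305 ± 199 CPM (-1.24 with the block, adjusted p = 0.00309). Tgm2, a transglutaminase, averaged 96.3 ± 51.2 and 106 ± 15.6 CPM (adjusted p = 0.582 with the block). Of the 8 tested genes in that list, 2 were higher and 3 lower in the negative library of every tumor, so the list had no common direction.

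**Figure D4:**
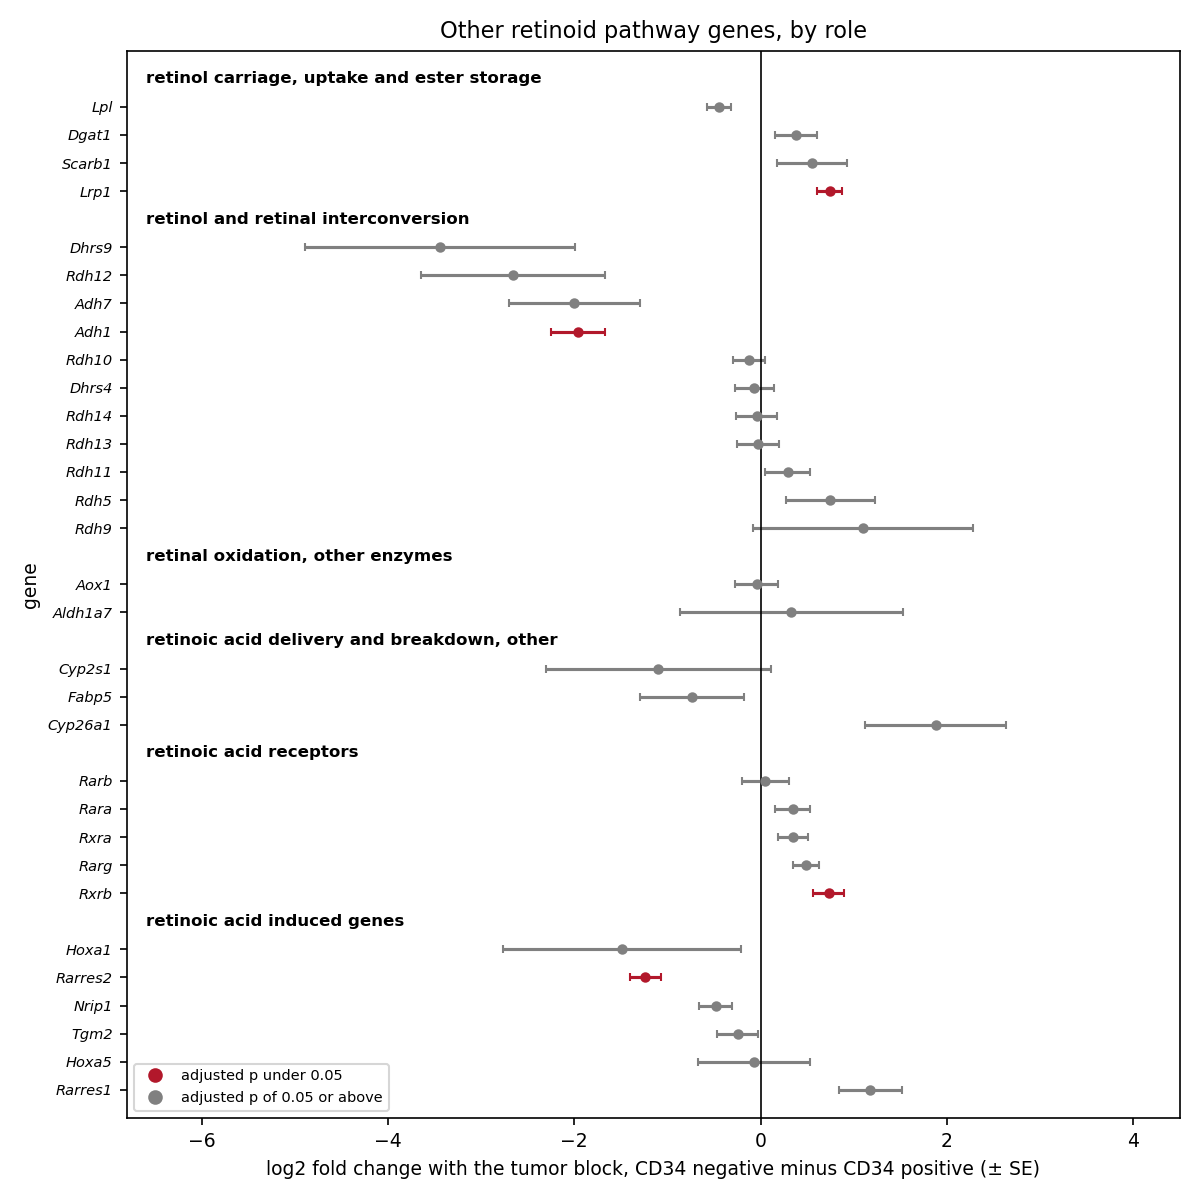
Log2 fold change with the tumor block, CD34 negative minus CD34 positive (horizontal axis), with its standard error for the 31 tested pathway genes outside the 9, grouped by role, each drawn once. Red points passed an adjusted p of 0.05, namely Lrp1 and Rxrb to the right of 0 and Adh1 and Rarres2 to the left.

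Marker genes of other cells the sort could hold were read for the same libraries. Immune markers summed to 9.63 to 10.9 CPM in negative and 4.89 to 11.6 CPM in positive libraries. Pericyte markers summed to 106 to 128 and 49.2 to 144 CPM, a sum that joins genes moving in opposite directions. Of these 5, 2 passed with the block as higher (Mcam and Notch3) and 2 as lower in negative CAFs (Kcnj8 and Abcc9). A pass in either direction was met by 8.57% of all tested genes. Rgs5 measured 4.08, 3.72 and 10.7 CPM in the negative and 1.18, 1.03 and 0.247 CPM in the positive libraries. It did not pass (log2 fold change with the block 2.60, adjusted p = 0.0803). Adipocyte markers, of which Cidec and Lep were at 0, summed to 4.77 to 13.9 and 1.73 to 34.5 CPM, Schwann cell markers to 7.56 to 17.8 and 11.3 to 18.3 CPM, and mesothelial markers, with Lrrn4 at 0, to 12.3 to 28.3 and 7.94 to 26.3 CPM. The ranges of each of these sums overlapped between the fractions. Without CD34 negative library 3, the log2 fold change was 1.75 for Aldh1a2, -2.80 for Aldh1a3, 1.84 for Cyp26b1, 1.35 for Stra6, 1.12 for Crabp1 and 0.25 for Rbp4.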

How the data were processed

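RNA of sorted CAFs was sequenced per library (TruSeq RNA v2). Per the labels and the study's methods, the authors aligned reads to GRCm38/mm10 and deposited raw counts per NCBI gene made with featureCounts of Rsubread, neither normalized nor pooled. Strand and multi-mapping settings were not given in the sources used here. The table was used as deposited, with 1310 genes without symbol kept. Groups and tumor numbers came from the titles.

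Genes were filtered with filterByExpr (minimum count 10), scaled by TMM and compared with limma-voom, steps that the study's methods name. The methods do not say whether the study's fit held a term for the tumor, and the fit reported first here held none. P-values of the two-sided test were adjusted by Benjamini-Hochberg over 14855 genes, with calls at 0.05. Software was limma 3.58.1 and edgeR 4.0.16 under R 4.3.3, with DESeq2 1.42.0 as an alternative. Fits were tested on simulated data. Libraries were paired by tumor number, both fractions being sorted from the same tumor. Their departures from group means correlated across genes at 0.373, 0.350 and 0.219 in tumors 1, 2 and 3. Blocked values therefore stand beside the results. RPKM used the deposited gene lengths. Within-tumor log2 ratios were taken as voom log2 CPM of the negative minus the positive library. Ratios of one library to another carry no replicate of their own.

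The 9 genes, the pathway lists and the marker lists were chosen with earlier results of these data known. A further pathway gene is not reported here and is left out of the counts over the pathway lists. Named genes were all 9, the pathway genes that passed with or without the block, the most abundant pair of each pathway list, and the nearest pair of profiles per gene among genes averaging 1 or more in log2 CPM. Alternatives comprised other tools, scalings, filters and blocks, and each library or tumor left out. Libraries of one group differed far beyond sampling noise (chi-square per gene of 137 to 255).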

Additional observations from a re-analysis of the deposited data

How the results depend on the processing

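The sign of the difference was kept under all 25 alternatives for 6 of the 9 genes (Stra6, Dhrs3, Aldh1a2, Aldh1a3, Crabp1 and Cyp26b1). Dhrs3 fell to 0.0067 with the block and without tumor 3. The share of all tested genes that kept their sign was not counted, and every alternative reused the same libraries. Calls depended on the tumor block and the tool, and the cause was not tested. The fit without the block called 18 genes in all, 0 of the 9 and 0 of the 31 other pathway genes. With the paired tumor block limma-voom called 1273, 5 and 4, with the tumor as a random effect 703, 3 and 4, edgeR with the block 575, 2 and 2, DESeq2 698, 3 and 5, and DESeq2 with the block 1733, 5 and 8. Sample quality weights called 161 genes and 1 of the 9, edgeR without the block 9 genes and scaling by library totals 32 genes. Leaving out a library or a tumor without the block gave 0 to 86 genes and none of the 9, and the 4 such fits that called no gene held 1123 to 2217 at an unadjusted p of 0.05. With the block, leaving out tumor 1, 2 or 3 gave 1134, 851 and 2019 genes, 6, 5 and 5 of the 9, and 3, 4 and 10 of the other pathway genes.

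Signs turned for Aldh1a1, Rbp4 and Crabp2, whose differences in the fit reported were smaller in size than their SE. Aldh1a1 was 0.01 in the fit reported, -0.0027 with median-of-ratios size factors, -0.022 with library totals, -0.00030 with no filter on low counts, -0.47 to 0.46 with a library or tumor left out, and -0.062 with the block and without tumor 2. Rbp4 was -0.79 in the fit reported, and 0.033 with edgeR and 0.022 with DESeq2, both without the block. It was -2.30 to 0.26 with a library or tumor left out, and 0.75 with the block and without tumor 2. Crabp2 was -0.44 in the fit reported, 0.0016 with the block and without tumor 1, and 0.056 with the block and without tumor 2. The 3 libraries per group limit precision, and a gene that missed the threshold is not thereby shown to be equal between fractions.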
